A study of Mus musculus with 9 samples.

Results

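The genes described here are 10 regulators and markers of the epithelial-to-mesenchymal transition (EMT), followed across 3 cultured mouse stem cell types. They were taken by symbol from the deposited gene count table: the cadherins Cdh1 and Cdh2, the surface marker Epcam, the filament gene Vim, the repressors Zeb1, Zeb2, Snai1 and Snai2, and the splicing regulators Esrp1 and Esrp2. All 10 were found, out of 54878 entries in the table, and all 10 were among the 16178 genes that passed the filter on low counts. ABSC cells were derived from AFSC cells in medium with Activin A and BMP4, are labelled as resembling trophoblast stem cells, and were collected at passage 25 to 30. ALSC cells were also derived from AFSC cells, are read here as grown with Activin A and LIF, and were collected at passage 20 to 25. The labels' protocol gives the Activin A and LIF recipe under the abbreviation of the other medium. AFSC cells came from blastocysts, were grown with Activin A and bFGF, are labelled as resembling epiblast stem cells, and were collected at passage 15 to 20. Every library shares the Sv129 x GOF/GFP F1 background and medium with Activin A, and each cell type has 3 libraries. Because the passage ranges follow the cell types, passage and cell type cannot be told apart. The labels' protocols also name a different RNA kit for ALSC than for all cells. If that kit was used for ALSC only, kit and cell type cannot be told apart there. Nothing in the labels says that the libraries of a type came from separate cultures, so the p-values measure only the spread between these libraries.

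Epithelial cells hold together through E-cadherin, the product of Cdh1, and cells that go through EMT lose it and gain N-cadherin, the product of Cdh2, in what is called the cadherin switch. Repressors of the Snail family (Snai1, Snai2) and of the ZEB family (Zeb1, Zeb2) bind E-box sequences in the promoters of epithelial genes, Cdh1 among them. In the embryo this switch accompanies the exit of epiblast cells through the primitive streak. Epithelial cells also express Epcam, an adhesion molecule of epithelia and of pluripotent cells, and the splicing factors Esrp1 and Esrp2, which maintain epithelial isoforms. Vim encodes vimentin, an intermediate filament protein of mesenchymal and many cultured cells.

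Windows at the start of 3 members are printed to show where the E-box letters that these repressors read do and do not occur: those of Epcam, a gene of the epithelial side, and of the repressor genes Snai1 and Zeb2. Each window holds 300 bases from RefSeq (GRCm38.p6), 250 before and 50 after an annotated start, written 5′ to 3′ on the gene's own strand with the letters CACCTG or their reverse complement CAGGTG in capitals. The Epcam window is chr17:87635729-87636028 on the plus strand, the Snai1 window is chr2:167537945-167538244 on the plus strand, and the Zeb2 window is chr2:45117393-45117692 on the minus strand.
Epcam: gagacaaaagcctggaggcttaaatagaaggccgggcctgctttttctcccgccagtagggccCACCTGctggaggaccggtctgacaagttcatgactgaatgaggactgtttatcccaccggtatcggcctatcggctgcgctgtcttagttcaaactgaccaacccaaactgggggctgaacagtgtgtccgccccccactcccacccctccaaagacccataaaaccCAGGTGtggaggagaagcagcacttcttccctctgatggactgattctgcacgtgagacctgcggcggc
Snai1: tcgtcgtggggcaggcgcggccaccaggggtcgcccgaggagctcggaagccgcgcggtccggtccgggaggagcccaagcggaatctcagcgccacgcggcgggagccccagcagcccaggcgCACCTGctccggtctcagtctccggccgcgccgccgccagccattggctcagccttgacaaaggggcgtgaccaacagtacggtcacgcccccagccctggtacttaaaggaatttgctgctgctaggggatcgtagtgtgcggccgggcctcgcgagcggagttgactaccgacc
Zeb2: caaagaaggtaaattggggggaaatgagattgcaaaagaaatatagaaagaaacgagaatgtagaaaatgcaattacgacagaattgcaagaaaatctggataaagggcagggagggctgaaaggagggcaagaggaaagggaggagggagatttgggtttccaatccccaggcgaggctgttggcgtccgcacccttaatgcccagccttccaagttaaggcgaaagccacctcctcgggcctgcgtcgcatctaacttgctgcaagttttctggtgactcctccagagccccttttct
The Epcam window held the motif at 2 places, CACCTG beginning 187 bases before the start and CAGGTG beginning 19 bases before it, and the Snai1 window held it once, beginning 126 bases before the start. The Zeb2 window shown did not hold these letters, nor did 3 other Zeb2 windows or the Vim window. Over all 32851 mouse windows of the same length, 6640 (20.2%) held the motif on either strand, so a match in 1 window is common and describes letters, not a bound site. No window was used for Cdh1, Cdh2, Zeb1, Snai2, Esrp1 or Esrp2.

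Sequencing depth was even, with 18978651 to 21578737 counts on Ensembl genes per library and scaling factors from 0.963 to 1.06. A count of 3, used as the floor of detection, equals 0.138 to 0.157 CPM (counts scaled to a common library size), and such floors cover counting error only, since reads without molecular identifiers are not independent molecules. All 7 epiblast markers exceeded 1 CPM in each cell type, and their summed level ran from 1677 to 1743 CPM in ABSC, 1577 to 1666 CPM in ALSC and 1761 to 1874 CPM in AFSC. Most of that sum was Pou5f1, at a mean of 1226 CPM in ABSC, 935 CPM in ALSC and 1075 CPM in AFSC, and the list was not level: 2 markers were higher and 5 lower in ABSC than in AFSC, 1 higher and 4 lower in ALSC than in AFSC, and 2 higher and 3 lower in ABSC than in ALSC. Of all genes tested, 7.98%, 7.04% and 11% were called in these comparisons, in the same order. Of 7 trophoblast markers, 5 exceeded 1 CPM in ABSC, 4 in ALSC and 3 in AFSC. The trophoblast factor Hand1 averaged 213 CPM in ABSC, 2.08 CPM in ALSC and 0.240 CPM in AFSC. Elf5, a defining marker of trophoblast stem cells, had only 2 counts in ABSC, 9 in ALSC and 14 in AFSC over all libraries of each type. The 3 libraries numbered 1 deviated together from the others, which is described with the genes it touches.

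Per length, Cdh1 and Epcam were among the most abundant transcripts of these cells, while Zeb1, Zeb2 and Snai2 were among the least abundant of the genes tested. On the per-length scale of FPKM (CPM divided by the gene length in kilobases), computed from the deposited counts and averaged over all 9 libraries, the Cdh1 level was 190 FPKM, higher than 98.5% of the genes tested, and the Epcam level was 166 FPKM, higher than 98.3%. Vim followed with a level of 30.2 FPKM and Esrp1 with 18.4 FPKM. A middle group held Esrp2 at 3.46 FPKM, Snai1 at 3.18 FPKM and Cdh2 at 2.09 FPKM. The lowest levels were those of Zeb2 at 0.313 FPKM, Zeb1 at 0.275 FPKM and Snai2 at 0.191 FPKM, the last higher than only 5.99% of the genes tested. This order rests on the gene lengths used, such as 19942 bases for Zeb2 and 1621 for Snai1. In CPM, Zeb2 averaged 9.62 in ALSC and 6.24 in AFSC, above Snai1 at 5.02 and 5.46. In ABSC it averaged 2.86 CPM, below Snai1 at 5.00 CPM.

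**Figure D1:**
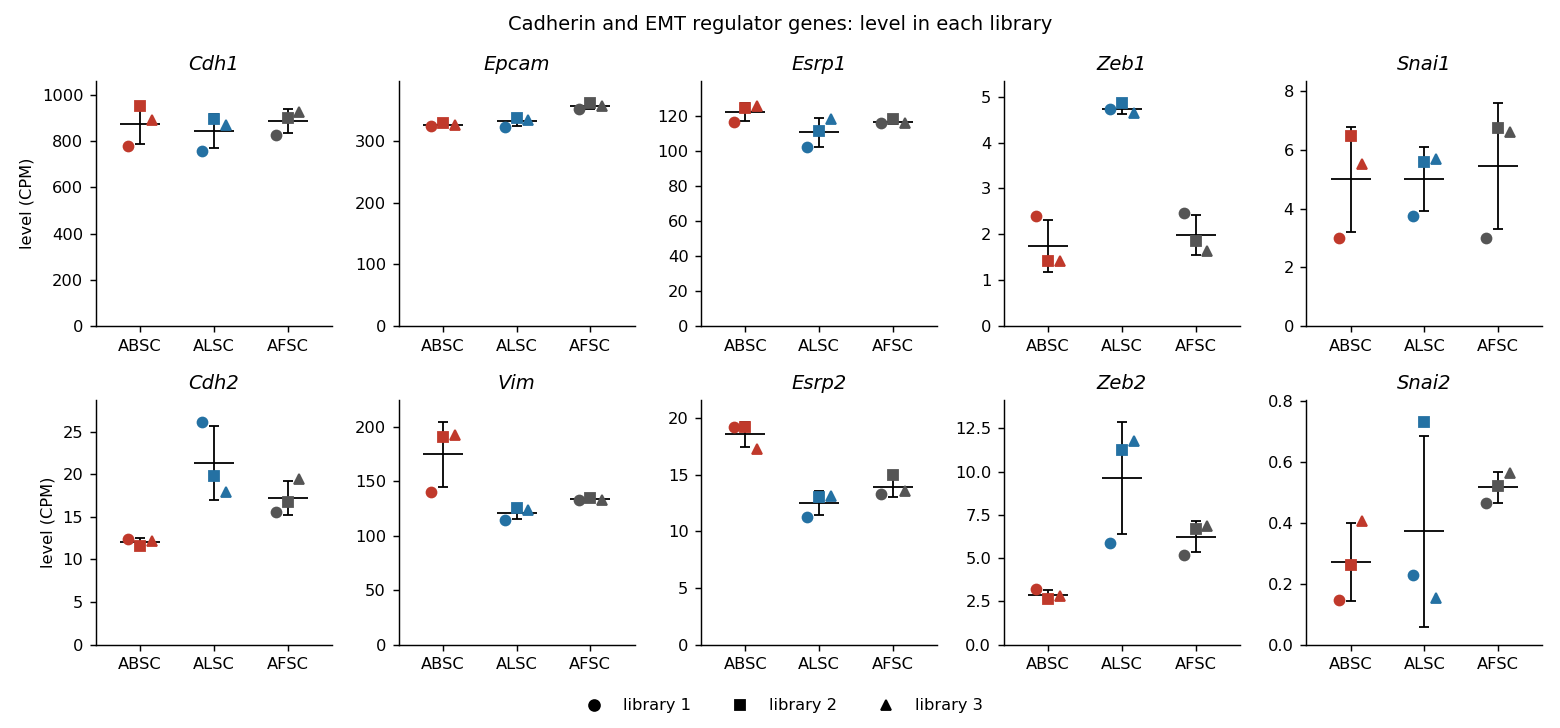
Level of each of the 10 genes in CPM (vertical axis, starting at 0, with its own range per panel) in the 3 libraries of ABSC, ALSC and AFSC; points are libraries, with marker shape for the library number, horizontal lines are group means and bars are ± 1 SD. Cdh1, Epcam and Esrp1 lay close together in the 3 cell types, whereas the Zeb1 values of ALSC, 4.64 to 4.86 CPM, lay above all values of ABSC and AFSC.

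The cadherin that defines epithelia did not pass the test between any of the cell types, while Cdh2 did in 1 of the 3 comparisons. Cdh1 (chr8:106603351-106670246, plus strand) had 780, 954 and 892 CPM in ABSC libraries 1, 2 and 3, 758, 896 and 871 CPM in ALSC, and 827, 902 and 926 CPM in AFSC. The groups overlapped in every pair, and library 1 was the lowest of each. The log2 difference was -0.02 for ABSC against AFSC (95% interval -0.21 to 0.18, adjusted p = 0.957 by edgeR's quasi-likelihood test with Benjamini-Hochberg adjustment over all genes tested), -0.07 for ALSC against AFSC (-0.27 to 0.12, adjusted p = 0.698 by the same edgeR test) and 0.06 for ABSC against ALSC (-0.14 to 0.25, adjusted p = 0.737 by edgeR). At 95% confidence these intervals bound a difference in Cdh1 at 0.27 log2 units in either direction. In such bulk RNA, fewer cells that carry a transcript and less of it per cell cannot be told apart, which holds for every gene below.

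Cdh2 (chr18:16588877-16809246, minus strand) had 12.4, 11.6 and 12.1 CPM in ABSC, 26.1, 19.8 and 17.9 CPM in ALSC, and 15.5, 16.7 and 19.5 CPM in AFSC. ABSC was the lowest in every library and overlapped neither other type, whereas ALSC and AFSC overlapped. Cdh2 was 1.77-fold lower in ABSC than in ALSC (log2 fold change -0.82, SE 0.151, adjusted p = 0.00719, edgeR). Against AFSC the ABSC difference was -0.52 (SE 0.152), which missed the threshold in the unblocked fit (adjusted p = 0.0701, edgeR) and passed it with the library number as a block (adjusted p = 0.014, edgeR). It also passed with DESeq2 (adjusted p = 0.0266) and, in edgeR, without a filter (adjusted p = 0.0421), with only the groups compared (0.0404), without ALSC library 1 (0.0203) and without all libraries numbered 1 (9.35e-05). With the block, these were the only 6 of 19 alternatives that called it. With 1 library left out it was called in 1 of 9 fits, and the adjusted p reached 0.255 (edgeR). For ALSC against AFSC the difference was 0.31 (SE 0.149, adjusted p = 0.268, edgeR), and 0.13 without ALSC library 1, which held the highest Cdh2 value of all. Levels thus ran ALSC, AFSC, ABSC from high to low. In the unblocked fit of all 9 libraries, neither pair of neighbours in that order differed at the threshold.

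Within each library the ratio of Cdh1 to Cdh2 does not depend on how libraries are scaled. Per length, Cdh1 exceeded Cdh2 by 110, 145 and 130 times in ABSC libraries 1, 2 and 3, by 51.1, 79.5 and 85.5 times in ALSC, and by 93.9, 94.95 and 83.9 times in AFSC. Every library was thus strongly weighted to Cdh1, most in ABSC, and ALSC library 1 had the smallest excess. On the log2 scale the ratio of Cdh2 to Cdh1 averaged -6.99 ± 0.195 in ABSC, -6.14 ± 0.403 in ALSC and -6.50 ± 0.0991 in AFSC (SD, n = 3 each). The mean log2 ratio was lower by 0.49 in ABSC than in AFSC and lower by 0.86 in ABSC than in ALSC, with no overlap in either pair and 2-sided exact permutation p = 0.1 for both, the smallest p that 3 against 3 libraries allows. For ALSC against AFSC it differed by 0.37 with overlapping groups (exact permutation p = 0.2), or by 0.14 without ALSC library 1.

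**Figure D2:**
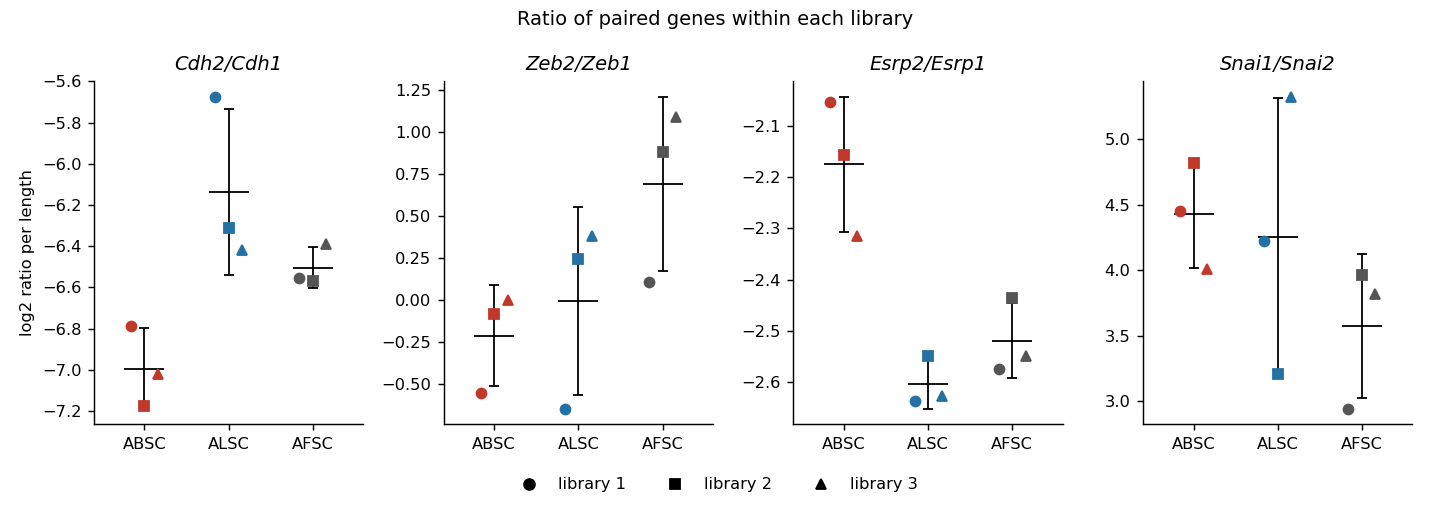
Log2 ratio per length within each library (vertical axis) of Cdh2 to Cdh1, Zeb2 to Zeb1, Esrp2 to Esrp1 and Snai1 to Snai2 in ABSC, ALSC and AFSC; points are libraries, with marker shape for the library number, horizontal lines are means and bars are ± 1 SD. The Cdh2 to Cdh1 ratio was lowest in ABSC, where it averaged -6.99, and the Zeb2 to Zeb1 ratio was lowest in library 1 of each cell type.

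Epcam, on the epithelial side, stayed within a narrow range in all 9 libraries. Its level (gene at chr17:87635979-87651106, plus strand, whose promoter window with 2 E-boxes is printed above) was 325, 329 and 327 CPM in ABSC, 324, 338 and 335 CPM in ALSC, and 352, 361 and 357 CPM in AFSC. AFSC lay above both other types without overlap, and ABSC and ALSC overlapped. The differences were small and did not pass the test in the fit of all 9 libraries: -0.13 for ABSC against AFSC (SE 0.0451, adjusted p = 0.138, edgeR, or 0.0262 without all libraries numbered 1), -0.10 for ALSC against AFSC (adjusted p = 0.22, edgeR) and -0.02 for ABSC against ALSC (adjusted p = 0.801, edgeR).

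Vim (chr2:13573927-13582826, plus strand) was highest in ABSC. It had 140, 191 and 193 CPM in ABSC, 115, 126 and 124 CPM in ALSC, and 133, 134 and 132 CPM in AFSC. ABSC overlapped neither other type, although ABSC library 1 lay much nearer to AFSC than libraries 2 and 3 did. Vim was 1.44-fold higher in ABSC than in ALSC (log2 fold change 0.53, SE 0.108, adjusted p = 0.0127, edgeR). This call was lost without ABSC library 2 (adjusted p = 0.0594, edgeR) and without ABSC library 3 (adjusted p = 0.0554, edgeR). The ABSC against AFSC difference of 0.39 (SE 0.108) missed the threshold in the unblocked fit (adjusted p = 0.0568, edgeR) and passed it with the library number as a block (adjusted p = 0.0045, edgeR). It also passed with DESeq2 (adjusted p = 0.0211) and, in edgeR, without a filter (adjusted p = 0.019), without ABSC library 1 (0.000531), without ALSC library 1 (0.0496) and without all libraries numbered 1 (1.42e-09). With the block, these were the only 6 of 19 alternatives that called it. With 1 library left out it was called in 2 of 9 fits, and the adjusted p reached 0.22 (edgeR). ALSC and AFSC, which did not overlap, differed by -0.14 (adjusted p = 0.528, edgeR). Fibroblast markers were low throughout, as 4 of 8 exceeded 1 CPM in ABSC and 3 of 8 in each other type. Their summed level was 10.3 to 18.2 CPM in ABSC, 10.8 to 25.3 CPM in ALSC and 17.5 to 19.1 CPM in AFSC, and Lum was at 0 in ABSC. The trophoblast markers, Hand1 among them, summed to 402 to 480 CPM in ABSC, 160 to 296 CPM in ALSC and 189 to 258 CPM in AFSC, with none of the 7 at 0. Hand1 alone averaged 213 CPM of that sum in ABSC, 2.08 CPM in ALSC and 0.240 CPM in AFSC. Of the 5 tested, Hand1 and Cdx2 were higher in ABSC than in each other type. Of all genes, 7.98% were called against AFSC and 11% against ALSC. Cdx2 had 260 counts over the ABSC libraries, 5 in ALSC and 8 in AFSC, and passed the filter on low counts only through ABSC. Eomes, Esrrb and Tfap2c were not called in either of those comparisons, with differences of -0.12, 0.03 and -1.12 from ALSC. From AFSC they differed by -0.07, 0.01 and 1.18. With the library number as a block Tfap2c was lower in ABSC than in ALSC (adjusted p = 0.0247, edgeR). The part of these markers in the Vim values was not tested.

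The ZEB repressor genes were scarce everywhere and were the members that varied most between cell types, both highest in ALSC. Zeb1 (chr18:5591860-5775467, plus strand) had 2.41, 1.41 and 1.42 CPM in ABSC, 4.73, 4.86 and 4.64 CPM in ALSC, and 2.47, 1.84 and 1.64 CPM in AFSC. The ALSC libraries stood above all others, and ABSC and AFSC overlapped, with library 1 the highest in both. Zeb1 rose 2.39-fold in ALSC against AFSC (log2 fold change 1.26, SE 0.254, adjusted p = 0.0176, edgeR) and was 2.71-fold lower in ABSC than in ALSC (log2 fold change -1.44, SE 0.257, adjusted p = 0.0064, edgeR). Between ABSC and AFSC it differed by -0.18 (95% interval -0.77 to 0.41, adjusted p = 0.803, edgeR), or by -0.48 without ABSC library 1. The ALSC against AFSC call was lost, at adjusted p between 0.0512 and 0.092 (edgeR), without ALSC library 2, ALSC library 3, AFSC library 2 or AFSC library 3, and was kept under the other alternatives run.

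Zeb2 (chr2:44983632-45117395, minus strand) had 3.19, 2.61 and 2.78 CPM in ABSC, 5.88, 11.2 and 11.8 CPM in ALSC, and 5.20, 6.66 and 6.86 CPM in AFSC. ABSC was the lowest in every library, and ALSC overlapped AFSC through ALSC library 1, at about the level of the AFSC libraries. Zeb2 was 3.35-fold lower in ABSC than in ALSC (log2 fold change -1.74, SE 0.265, adjusted p = 0.00266, edgeR) and 2.18-fold lower in ABSC than in AFSC (log2 fold change -1.12, SE 0.266, adjusted p = 0.0288, edgeR). The second of these calls was lost with limma-voom (adjusted p = 0.0716) and without ABSC library 2, ABSC library 3, AFSC library 2 or AFSC library 3 (adjusted p between 0.102 and 0.117, edgeR). The ALSC against AFSC difference was 0.62 (SE 0.251, adjusted p = 0.182, edgeR), and it passed the test with the library number as a block (adjusted p = 0.0349, edgeR), without ALSC library 1 (log2 fold change 0.88, adjusted p = 0.018, edgeR) and without all libraries numbered 1 (log2 fold change 0.76, adjusted p = 9.73e-05, edgeR). These were the only 3 of 19 alternatives that called it.

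Both ZEB genes thus had their highest mean in ALSC. Per length, the log2 ratio of Zeb2 to Zeb1 averaged -0.21 ± 0.300 in ABSC, -0.01 ± 0.558 in ALSC and 0.69 ± 0.517 in AFSC (SD, n = 3 each), a ratio chosen after its values were seen and given as a description. Of the exon bases of Zeb2, 3.27% are shared with its antisense gene Zeb2os. Of those of Zeb1, 1.93% are shared with Gm10125 on the opposite strand. Zeb2os and Gm10125 had 0 to 2 counts per library, which does not show how many reads fell in the shared bases. The part of such reads in the counts of Zeb1 and Zeb2 was not tested. Endoderm markers had their highest sums in ALSC and their lowest in ABSC, with summed levels of 5.16 to 7.53 CPM in ABSC, 12.2 to 19.4 CPM in ALSC and 9.97 to 11.7 CPM in AFSC. Of these 5 markers, 1 exceeded 1 CPM in ABSC, 4 in ALSC and 3 in AFSC, and none was at 0. Dab2 alone averaged 5.00, 7.39 and 6.76 CPM in ABSC, ALSC and AFSC. Sox7, not tested, was highest in ABSC, at 0.629, 0.296 and 0.275 CPM in that order. Of the 4 tested, none was called in ALSC against AFSC, where 7.04% of all genes were. In ABSC, 1 was lower than in AFSC (7.98% of all genes called) and 3 lower than in ALSC (11%). With the block these became 2 higher, 2 lower and 4 lower, where 22.2%, 19.4% and 28.5% of all genes were called. Mesoderm markers, mainly the streak gene T, summed to 77.2 to 159 CPM in ABSC, 141 to 155 CPM in ALSC and 73.6 to 81.3 CPM in AFSC. Of these 7 markers, 3 exceeded 1 CPM in ABSC, 4 in ALSC and 2 in AFSC, and Msgn1 was at 0 in all. The part of these cell types in the Zeb1 and Zeb2 values was not tested.

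Of the Snail repressors, Snai1 varied more between library numbers than between cell types. Snai1 (chr2:167538195-167542814, plus strand) had 3.00, 6.48 and 5.52 CPM in ABSC, 3.77, 5.59 and 5.71 CPM in ALSC, and 2.99, 6.76 and 6.62 CPM in AFSC. All groups overlapped, and library 1 was the lowest of each, below the mean of libraries 2 and 3 by 0.99 log2 units in ABSC, 0.58 in ALSC and 1.16 in AFSC. The differences between types were -0.13 for ABSC against AFSC (95% interval -0.92 to 0.66, adjusted p = 0.908, edgeR), -0.13 for ALSC against AFSC (adjusted p = 0.887, edgeR) and -0.01 for ABSC against ALSC (-0.80 to 0.79, adjusted p = 0.993, edgeR). At the depth and spread of these libraries, differences of 0.6 log2 units in either direction lie within those intervals.

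Snai2 (chr16:14705852-14709385, plus strand) was at the edge of detection, with 3, 5 and 8 counts in ABSC, 5, 14 and 3 counts in ALSC, and 9, 11 and 12 counts in AFSC. AFSC lay above ABSC without overlap, and ALSC overlapped both. Differences were -0.92 for ABSC against AFSC (95% interval -2.22 to 0.38, adjusted p = 0.452, edgeR), -0.49 for ALSC against AFSC (adjusted p = 0.681, edgeR) and -0.43 for ABSC against ALSC (adjusted p = 0.716, edgeR). At this depth a 4-fold lower level of Snai2 in ABSC than in AFSC lies within the interval. Per length, the level of Snai1 exceeded that of Snai2 by 16.1 to 28.2 times in ABSC, 9.24 to 40.1 times in ALSC and 7.68 to 15.6 times in AFSC.

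The splicing regulators Esrp1 and Esrp2 had the same order of means, with ABSC highest and ALSC lowest, and in the unblocked fit Esrp2 was called in 2 comparisons and Esrp1 in none. Esrp1 (chr4:11331933-11386783, minus strand) had 116, 124 and 125 CPM in ABSC, 102, 111 and 118 CPM in ALSC, and 116, 118 and 116 CPM in AFSC. The groups overlapped in each pair. Differences were 0.07 for ABSC against AFSC (adjusted p = 0.658, edgeR), -0.08 for ALSC against AFSC (adjusted p = 0.568, edgeR) and 0.14 for ABSC against ALSC (SE 0.0656, adjusted p = 0.196, edgeR), the last called higher with the library number as a block (adjusted p = 0.0485, edgeR) and without all libraries numbered 1 (adjusted p = 0.0369, edgeR). That last difference was called in these 2 of 19 alternatives only.

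Esrp2 (chr8:106130319-106136974, minus strand) had 19.3, 19.2 and 17.3 CPM in ABSC, 11.3, 13.1 and 13.1 CPM in ALSC, and 13.3, 15.0 and 13.6 CPM in AFSC. No 2 cell types overlapped: ABSC was the highest and ALSC the lowest. Esrp2 was 1.49-fold higher in ABSC than in ALSC (log2 fold change 0.57, SE 0.111, adjusted p = 0.00949, edgeR). It was 1.33-fold higher in ABSC than in AFSC (log2 fold change 0.41, SE 0.111), at an adjusted p of 0.049 (edgeR) that lay just under the threshold. That call was lost in 11 of 19 alternatives, at an adjusted p of up to 0.176 (edgeR), among them the removal of any single library except ALSC library 1. ALSC and AFSC differed by -0.16 (adjusted p = 0.457, edgeR). Of the exon bases of Esrp2, 5.05% are shared with Nfatc3 on the opposite strand, whose reads this unstranded kit cannot separate. Nfatc3 itself differed by -0.02 in ABSC against AFSC and by -0.03 in ABSC against ALSC and was not called. Per length, the level of Esrp1 exceeded that of Esrp2 by 4.15 to 4.97 times in ABSC, 5.85 to 6.22 times in ALSC and 5.41 to 5.95 times in AFSC.

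Counted together, the members had the most calls between ABSC and ALSC, in both directions. In ABSC against ALSC 5 of 10 were called, with Vim and Esrp2 higher and Cdh2, Zeb1 and Zeb2 lower, where 11% of all genes tested were called, 5.41% higher and 5.56% lower. Over all genes called in that comparison, 49.3% were higher in ABSC, and 35.1% were with libraries scaled by size only, a scaling under which the same 5 members kept their direction and call. In ABSC against AFSC 2 of 10 were called, Esrp2 higher and Zeb2 lower, where 7.98% of all genes were called, 3.98% higher and 4% lower. With the library number as a block 4 were called, Vim higher and Cdh2 lower being the additions, where 19.4% of all genes were, 9.58% higher and 9.78% lower. In ALSC against AFSC 1 of 10 was called, Zeb1 higher, where 7.04% of all genes were called, 3.54% higher and 3.5% lower. With the block 2 were called, Zeb2 higher being the addition, where 22.2% of all genes were, 11.1% higher and 11.1% lower. In ABSC against ALSC the block added Esrp1, giving 6 of 10, where 28.5% of all genes were called, 14.2% higher and 14.3% lower. The test for any difference among the 3 types called Cdh2 (adjusted p = 0.0135, edgeR), Zeb1 (0.0059), Zeb2 (0.00511), Vim (0.0183) and Esrp2 (0.0141), 5 of 10 against 14.8% of all genes tested, and 5 of 10 against 37% with the block.

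Median log2 differences of the 10 genes were -0.13 in ABSC against AFSC, -0.09 in ALSC against AFSC and -0.01 in ABSC against ALSC, beside -0.00426, 0.00264 and -0.0106 over all genes tested. Groups did not overlap for 6 of 10 members in ABSC against AFSC, where 27.4% of all genes did not overlap, for 4 in ALSC against AFSC (28.5% of all genes) and for 5 in ABSC against ALSC (28.9% of all genes). The comparisons of ABSC and of ALSC with AFSC share the AFSC libraries, so their values for a gene are not independent of each other.

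**Figure D3:**
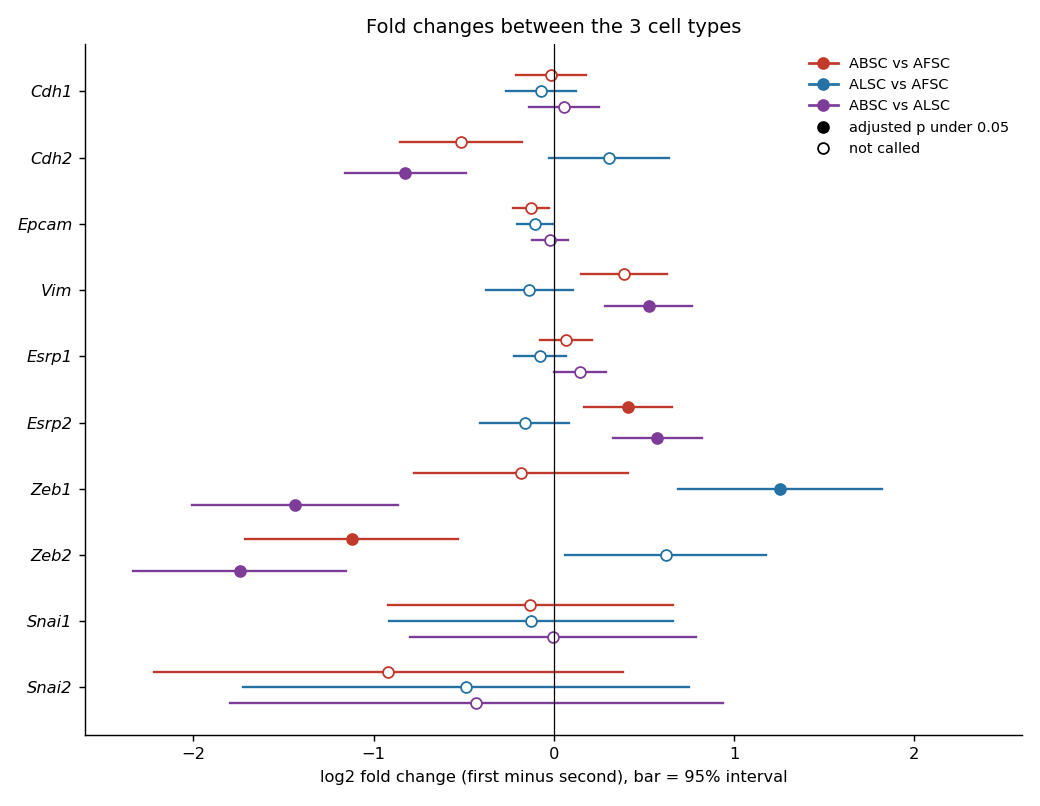
Log2 fold change (horizontal axis, first type minus second) of each of the 10 genes in ABSC against AFSC, ALSC against AFSC and ABSC against ALSC; points are edgeR estimates, filled where the adjusted p was under 0.05, and bars are 95% intervals. Zeb1 and Zeb2 have the largest called differences, -1.44 and -1.74 in ABSC against ALSC, and all intervals of Cdh1 span 0.

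Libraries numbered 1 differed from the others of their type in several members. Set against the mean of libraries 2 and 3, Cdh1 in library 1 was lower by 0.24 log2 units in ABSC, 0.22 in ALSC and 0.14 in AFSC. Zeb1 in library 1 was higher by 0.76 in ABSC and by 0.50 in AFSC, and at the same level in ALSC, where the difference was -0.00. For Zeb2 the direction varied, with 0.24 in ABSC, -0.96 in ALSC and -0.38 in AFSC, and likewise for Cdh2, with 0.07 in ABSC, 0.47 in ALSC and -0.22 in AFSC. What sets these libraries apart was not tested.

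The counts of the lists around the members are read beside the shares of all genes called, 7.98% in ABSC against AFSC, 7.04% in ALSC against AFSC and 11% in ABSC against ALSC, and with the block 19.4%, 22.2% and 28.5%. Of 16 tested junction and polarity genes, 10 were higher and 1 lower in ABSC than in ALSC (median log2 difference 0.58, against -0.0106 over all genes), 1 was higher and 5 lower in ALSC than in AFSC (median -0.28), and 3 were higher and none lower in ABSC than in AFSC (median 0.27). With the library number as a block the counts were 14 higher and 1 lower, 2 higher and 9 lower, and 9 higher and 1 lower, in the same order of comparisons. Krt8, a keratin of simple epithelia, averaged 156 ± 21.4 CPM in ABSC, 67.4 ± 7.73 CPM in ALSC and 104 ± 8.60 CPM in AFSC (SD, n = 3 each). It was 2.31-fold higher in ABSC than in ALSC (log2 fold change 1.21, adjusted p = 0.000185, edgeR). Rab25, a GTPase of epithelial recycling endosomes, was 2.12-fold higher in ABSC than in ALSC (adjusted p = 0.000468, edgeR) and 1.89-fold lower in ALSC than in AFSC (adjusted p = 0.00237, edgeR). Ocln, the tight junction protein occludin, was 2.10-fold higher in ABSC than in ALSC (adjusted p = 0.00953, edgeR). The exception in ABSC against ALSC was Cldn3, a claudin, which was lower in ABSC than in ALSC by 1.61 log2 units (adjusted p = 0.0145, edgeR). Without ABSC library 2 or 3 that adjusted p was up to 0.0689 (edgeR). Ap1m2, an epithelial adaptor subunit, was lowest in AFSC, with 38.1 ± 2.90 CPM in ABSC, 25.8 ± 2.69 CPM in ALSC and 11.3 ± 0.995 CPM in AFSC.

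Several partner genes of the cadherins passed the test. Of 10 catenin, nectin and linker genes, 5 were higher and none lower in ABSC than in ALSC, 3 were higher and none lower in ABSC than in AFSC, and 2 were lower and none higher in ALSC than in AFSC, with medians of 0.28, 0.20 and -0.10. With the block these became 7 higher, 7 higher, and 1 higher with 3 lower. Jup, which encodes plakoglobin, had 120, 140 and 126 CPM in ABSC, 65.6, 61.9 and 57.7 CPM in ALSC, and 72.9, 82.9 and 76.8 CPM in AFSC. No cell types overlapped, and Jup was 2.09-fold higher in ABSC than in ALSC (log2 fold change 1.06, SE 0.0813, adjusted p = 3.8e-05, edgeR) and 1.66-fold higher in ABSC than in AFSC (adjusted p = 0.000477, edgeR). Nectin1, an adhesion receptor of adherens junctions, differed by 1.13 between ABSC and ALSC (adjusted p = 0.000174, edgeR) and by -0.62 between ALSC and AFSC (adjusted p = 0.00857, edgeR). The p120 catenin gene Ctnnd1 differed by 0.47 between ABSC and ALSC (adjusted p = 0.00677, edgeR), whereas Ctnnb1, the beta-catenin gene, differed by 0.10 there and was not called. Among 7 tested other cadherins, 1 was lower and none higher in ABSC than in ALSC, namely Cdh13 at 0.202 ± 0.0473 CPM in ABSC and 1.70 ± 0.622 CPM in ALSC (SD, n = 3 each). In ALSC against AFSC 1 was higher and 1 lower. In ABSC against AFSC 2 were lower and none higher, and of these Cdh11 was 2.64-fold lower (adjusted p = 0.011, edgeR; 0.058 without ABSC library 2). With the block the calls among these cadherins were 1 higher and 2 lower in ABSC against ALSC, 1 higher and 2 lower in ALSC against AFSC, and 1 higher and 3 lower in ABSC against AFSC. Cdh8, among those tested, had 52 counts over the AFSC libraries, 7 in ABSC and 3 in ALSC. It passed the filter on low counts only through AFSC.

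**Figure D4:**
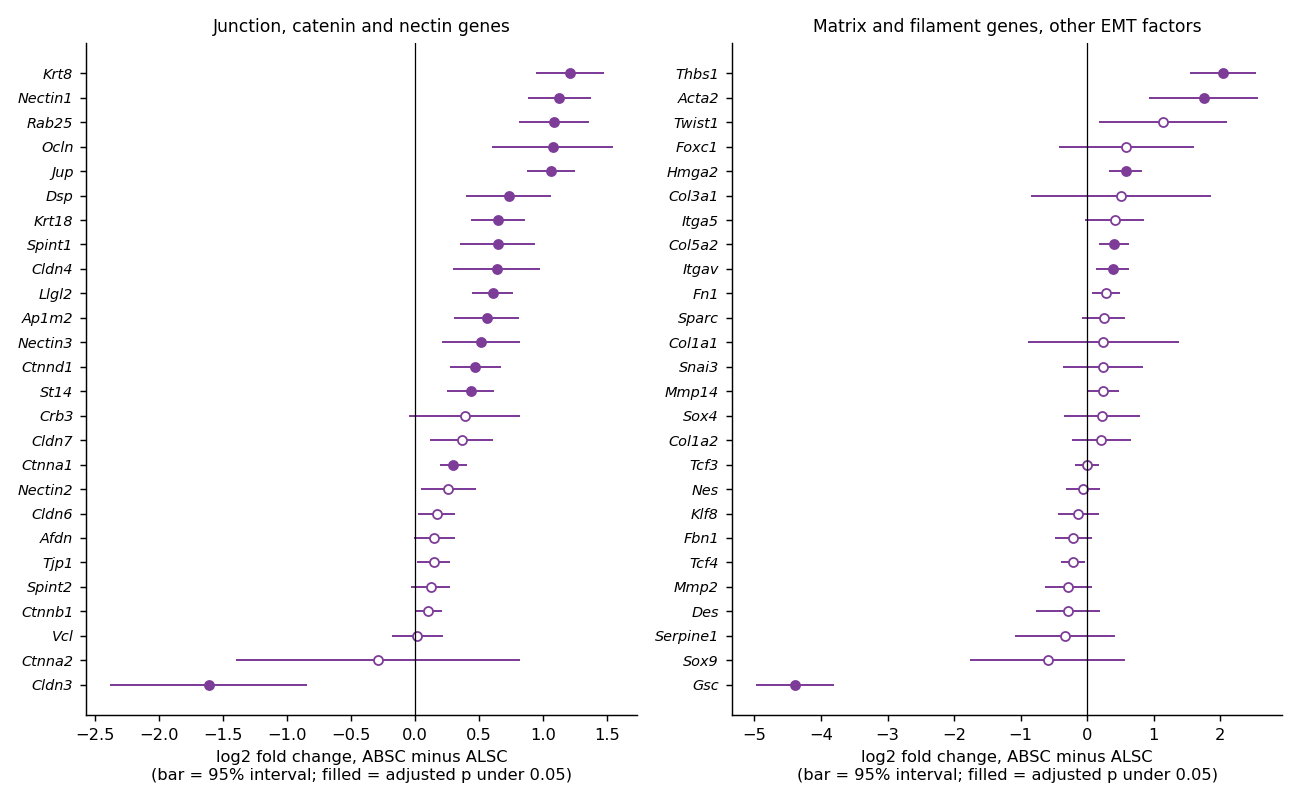
Log2 fold change of ABSC minus ALSC (horizontal axis) for junction, catenin and nectin genes (left) and for matrix, filament and other EMT factor genes (right); points are edgeR estimates, filled where the adjusted p was under 0.05, and bars are 95% intervals. On the left 15 genes are called higher and Cldn3 is the single gene called lower, and on the right Gsc lies at -4.40, far below the rest.

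Transcription factors of the epithelial side were called in both directions. Of 9 tested, 2 were higher and 2 lower in ABSC than in AFSC, 1 higher and 1 lower in ALSC than in AFSC, and 1 higher and 2 lower in ABSC than in ALSC, with medians of 0.19, 0.11 and 0.08. Grhl2, an activator of Cdh1 and other junction genes, had 80.1, 92.0 and 91.6 CPM in ABSC, 31.2, 38.2 and 36.0 CPM in ALSC, and 52.5, 52.8 and 52.4 CPM in AFSC. The types did not overlap, and Grhl2 was called in all comparisons: 1.67-fold higher in ABSC than in AFSC (adjusted p = 0.00067, edgeR), lower by 0.58 log2 units in ALSC than in AFSC (adjusted p = 0.00477, edgeR) and 2.50-fold higher in ABSC than in ALSC (adjusted p = 1.76e-05, edgeR). Foxa2, a forkhead factor of endoderm, was 49.8-fold lower in ABSC than in AFSC (adjusted p = 4.19e-06, edgeR), at 0.307 ± 0.142 CPM in ABSC, 17.2 ± 2.98 CPM in ALSC and 15.5 ± 1.16 CPM in AFSC. Foxa1, its relative, differed by -3.41 in ABSC against AFSC (adjusted p = 0.00288, edgeR), and Elf3, an epithelial ETS factor, by 0.94 (adjusted p = 0.00626, edgeR). The sum of the endoderm markers given beside Zeb1 and Zeb2 was lowest in ABSC as well, and its part in the forkhead values was not tested.

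Of 13 other EMT factors, 10 were tested. In ABSC against AFSC 2 were lower and none higher, in ALSC against AFSC 2 were higher and 1 lower, and in ABSC against ALSC 1 was higher and 1 lower, with medians of -0.07, 0.19 and 0.11. With the block there were 1 higher and 3 lower, 2 higher and 4 lower, and 2 higher and 2 lower, in the same order. Gsc, the homeobox gene goosecoid of the anterior streak, had 0.589, 0.680 and 1.26 CPM in ABSC, 19.8, 14.9 and 19.0 CPM in ALSC, and 7.83, 9.54 and 9.11 CPM in AFSC. Like Zeb2 it was highest in ALSC and lowest in ABSC: the ABSC difference was -3.38 from AFSC (adjusted p = 4.95e-05, edgeR) and -4.40 from ALSC (adjusted p = 7.67e-06, edgeR), and ALSC exceeded AFSC by 1.02 log2 units (adjusted p = 0.0167, edgeR; up to 0.0758 without ALSC library 3 or any AFSC library). Twist1, a basic helix-loop-helix EMT factor, was scarce and highest in AFSC, with 0.407 ± 0.141 CPM in ABSC, 0.180 ± 0.0433 CPM in ALSC and 1.36 ± 0.0726 CPM in AFSC. Over the libraries of a type Twist1 had 24 counts in ABSC, 11 in ALSC and 84 in AFSC. It passed the filter on low counts only through AFSC, where it was highest. It was 3.31-fold lower in ABSC than in AFSC (adjusted p = 0.0103, edgeR; 0.051 without AFSC library 3) and 7.28-fold lower in ALSC than in AFSC (adjusted p = 0.00225, edgeR). Hmga2, a chromatin protein gene, was higher in ABSC than in ALSC by 0.58 (adjusted p = 0.00677, edgeR).

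Among mesenchymal matrix and filament genes, each call between ABSC and ALSC was higher in ABSC, as were most junction calls. Of 16 tested, 4 were higher and none lower in ABSC than in ALSC (median 0.24), 3 were higher and none lower in ABSC than in AFSC (median -0.21), and 1 was higher and 2 lower in ALSC than in AFSC (median -0.23). With the block the counts were 7 higher and none lower, 5 higher and 3 lower, and 2 higher and 6 lower, in the same order of comparisons. The median and the calls of the ABSC against AFSC list thus had opposite signs. Fn1, the fibronectin gene, averaged 307 ± 17.4 CPM in ABSC, 252 ± 32.0 CPM in ALSC and 194 ± 4.85 CPM in AFSC, 1.58-fold higher in ABSC than in AFSC (adjusted p = 0.0012, edgeR). Thbs1, the gene of the matrix protein thrombospondin, was 4.12-fold higher in ABSC than in ALSC (adjusted p = 0.000357, edgeR), and Acta2, a smooth muscle actin gene, was 5.07-fold higher in ABSC than in AFSC (adjusted p = 0.00448, edgeR) at a low level of 1.67 ± 0.264 CPM in ABSC and 0.327 ± 0.138 CPM in AFSC. Acta2 had 99 counts over the ABSC libraries, 30 in ALSC and 20 in AFSC, and passed the filter on low counts only through ABSC. Col5a2, a fibrillar collagen gene, was lower in ALSC than in AFSC by 0.64 (adjusted p = 0.0037, edgeR). Of the 4 calls between ABSC and ALSC, only that of Thbs1 held in all 19 alternatives. The call of Itgav was lost in 10 of 19, that of Col5a2 in 4 and that of Acta2 in 3. Their adjusted p reached 0.12, 0.0896 and 0.0542 (edgeR).

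Cofactor genes of the members were called at shares near those of all genes given above. Of 11 splicing regulators linked to EMT, Rbm47 alone was called, lower in ABSC than in AFSC by 1.28 log2 units (adjusted p = 0.00787, edgeR) and lower in ABSC than in ALSC by 0.96 (adjusted p = 0.028, edgeR; up to 0.0768 in 6 of 19 alternatives, 5 of which leave out ABSC library 3, AFSC library 2 or any ALSC library), and none was called in ALSC against AFSC. With the block, 2 were lower in ABSC than in AFSC, 4 were lower in ALSC than in AFSC, and 3 were higher and 1 lower in ABSC than in ALSC. Of 9 corepressor genes of the Snail and ZEB proteins, Ctbp2 alone was called, lower in ABSC than in AFSC by 0.43 (adjusted p = 0.0197, edgeR; up to 0.0939 without ABSC library 2, ABSC library 3 or any AFSC library). With the block 1 was lower in ABSC than in AFSC, 1 was lower in ALSC than in AFSC, and 1 was higher and 1 lower in ABSC than in ALSC. The 5 microRNA loci of the miR-200 family, which target the ZEB genes, had 0 to 2 counts over the libraries of a cell type in this poly-A RNA and were not tested.

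Zeb1 and Zeb2 were the members with a call for any difference and group means at least 2-fold apart, and for these the genes most alike in pattern were listed. Likeness was the root mean square difference of log2 CPM over the 9 libraries, each gene centred on its own mean, searched among 9337 genes averaging at least 10 CPM. For Zeb1, whose own centred values had a root mean square of 0.698, the nearest were Gusb at 0.208, Bst2 at 0.209 and Zfp516 at 0.256. For Zeb2, with a root mean square of 0.755, the nearest were Fam19a5 at 0.297, Camk2b at 0.299 and Epha7 at 0.302. These lists share no gene.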

How the data were processed

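RNA of 9 libraries, 3 each of ABSC, ALSC and AFSC, was analysed. Per the labels' protocols, libraries were made with poly-T beads and an unstranded NEBNext Ultra kit; the RNA kit named for ALSC differs from that named for all cells, and the series record and the protocol name different HiSeq models. The deposited values are raw counts per gene that the authors made; per the submitters' processing notes, HISAT2 2.0.5 and featureCounts 1.5.0-p3 were used with mm9. Of 54409 gene IDs shared with a GRCm38 annotation, 98.26% had the same coordinates, so positions are read as GRCm38.

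The 346 entries without an Ensembl gene (0.208% to 0.227% of counts) were left out. The test was the quasi-likelihood F test of edgeR 4.0.16 (limma 3.58.1, R 4.3.3) with 1 robust fit of all libraries, TMM scaling, a minimum count of 10 and minimum total of 15, 6 residual degrees of freedom and Benjamini-Hochberg adjustment over 16178 genes at a threshold of 0.05; "rose", "fell", "higher", "lower" in counts and "called" refer to it. The SE of a log2 fold change is its size divided by the root of its F value. CPM and FPKM were computed with TMM factors and the table's gene lengths. Ratios had 0.5 counts added. Scripts were tested on simulated data. Alternatives were DESeq2 1.42.0, limma-voom, other scalings and filters, fewer groups, protein-coding genes, libraries left out and the library number as a block.

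Same-numbered libraries deviated together from their group means (correlation over genes 0.44 to 0.525 for number 1, 0.179 to 0.258 for number 2 and 0.199 to 0.325 for number 3). Libraries numbered 2 were also correlated with those numbered 3, at 0.202 to 0.255. The correlations thus set number 1 apart, but do not show that number 2 pairs with 2 or number 3 with 3. The numbers come from the labels and served as a block in an alternative fit only. The members and lists were chosen with earlier results of these data known. All members are named, and of each list up to 4 called genes per comparison with the largest change at 1 CPM or more in a group, of which the text gives the leading ones. Values for Ctnnb1, Nfatc3 and the marker genes were chosen after they were seen.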

Additional observations from a re-analysis of the deposited data

How the results depend on the processing

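Of 565 alternative values for the 30 fold changes of the members, 499 kept direction and side of the threshold. In ABSC against ALSC, Cdh2, Zeb1, Zeb2 and Esrp2 were called in 19 of 19 alternatives. With the library number as a block, 3132 genes were called in ABSC against AFSC, 3590 in ALSC against AFSC, 4605 in ABSC against ALSC and 5992 for any difference, against 1291, 1139, 1775 and 2395 without it. Members called were 4, 2 and 6, and the block changed no other member's call than those named above. Without all libraries numbered 1 the counts of genes called were 4622, 4122, 5225 and 7121, with 5 members in ABSC against AFSC and 2 in ALSC against AFSC. With 1 library left out, they ran from 667 to 1723, 345 to 1522, 846 to 2337 and 1395 to 3048, members from 0 to 4 in ABSC against AFSC and 0 to 2 in ALSC against AFSC. With only the groups compared, 1041 genes were called in ABSC against ALSC. Members called in ABSC against AFSC were 1 with library size only, 1 with limma-voom and 4 with DESeq2. The cause of these shifts was not tested.

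Reversals touched only values that were not called. Cdh1 in ABSC against AFSC was 0.01879 without the libraries numbered 1 and -0.08059 to 0.06594 with 1 library left out, and in ABSC against ALSC it was -0.01177 with library size only and -0.008751 to 0.14 with 1 left out. Snai1 in ABSC against ALSC was 0.003724 with DESeq2 size factors, 0.00149 with no filter, 0.0007994 with protein-coding genes, 0.00359 with DESeq2 and 0.09438 without the libraries numbered 1. With 1 library left out, Snai1 ran from -0.42 to 0.14 in ABSC against AFSC, -0.42 to 0.05169 in ALSC against AFSC and -0.23 to 0.27 in ABSC against ALSC, Zeb1 in ABSC against AFSC from -0.48 to 0.006129, and Snai2 in ABSC against ALSC from -0.82 to 0.48. Snai2 had too few counts for a value under the filter of 1 CPM or, in 2 comparisons, with only the groups compared. Of 52 calls of named list genes, recomputed as alternatives chosen after seeing the data, 30 held throughout, 22 were lost somewhere and 0 changed sign. The cadherin ratio kept its direction in each comparison with any 1 library left out. Gene length cancels in a difference between groups, so leaving it out could change nothing. Adding 1 count could change little at these counts. Snai2 rested on 3 to 14 counts per library.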
